A study of Caenorhabditis elegans with 21 samples.

Results

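The windows described here are stretches of 500 bp of the Caenorhabditis elegans genome (build ce10) in which early embryos carrying lin-61(tm2649) and set-25(n5021) gave more RNA reads than embryos of 4 other genotypes. A level is the count of reads in a window per 1000000 reads of its library (CPM), averaged over the 3 libraries of a genotype. A window was kept when its mean in lin-61 set-25 was at least 1 CPM and at least 3 times the mean in each of lin-61, nrde-3 set-25, nrde-3 and N2. This rule kept 1850 of 200547 windows, or 2.97% of the 62320 windows with at least 1 CPM in lin-61 set-25. Levels in those 5 genotypes chose the windows and are given as a description, without tests. The counts carry neither strand nor genes, and no annotation of ce10 was used here, so windows are named by chromosome and first base.

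In C. elegans embryos, methylation of histone H3 on lysine 9 marks silent chromatin, above all repeats and genes that are active only in particular tissues. SET-25 is the methyltransferase that deposits the trimethylated form, and MET-2 deposits the mono- and dimethylated forms. LIN-61 is a protein with MBT domains that binds methylated lysine 9, and NRDE-3 is an Argonaute that carries small RNAs into the nucleus of somatic cells. By its title, the series is about separate routes, through LIN-61 or through NRDE-3, that bring the trimethylating enzyme to chromatin.

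Total RNA depleted of ribosomal RNA was sequenced from embryos of about 1 to 300 cells grown at 20 °C, in 7 genotypes with 3 libraries each. The genotypes were N2 (Bristol, the wild type), the single mutants lin-61(tm2649) I and nrde-3(tm1116) X, and 4 double mutants. In the double mutants, set-25(n5021) III or met-2(n4256) III was combined with lin-61(tm2649) or with nrde-3(tm1116). N2 and lin-61 libraries have titles with the prefix 875 and held 54839178 to 67553226 reads, while the other 5 genotypes have the prefix 1121 and held 22275571 to 28834312 reads. The labels speak of 2 biological replicates although 3 are numbered, so spreads and p-values refer to libraries, which need not be separate cultures.

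The lin-61 met-2-labelled libraries went against their label. Of the windows lost in some genotypes, 2 on chromosome I, from 7249001 to 7250000, held 62 ± 2.97 CPM (SD, n = 3) in N2, 5.98 ± 0.545 in lin-61 and 9.85 ± 0.715 in lin-61 set-25, but 89.4 ± 10.1 in the lin-61 met-2-labelled libraries. A set of 3 windows on I and X was grouped by being low in every genotype with nrde-3 and in the lin-61 met-2-labelled libraries. It held 6.76 ± 0.312 CPM in nrde-3 and 6.41 ± 0.308 in the lin-61 met-2-labelled libraries, against 89.4 ± 6.73 in N2. In both sets lin-61 set-25 followed its label, with 85.8 ± 15 CPM in the second. On III, 3 windows from 13288001 to 13289500 fell from 38.7 ± 3.59 CPM in N2 to 0.523 ± 0.12 in lin-61 set-25, and to at most 0.929 in the other 3 double mutants, so they do not separate met-2 from set-25. None of these windows, which were picked by their values, is among the 1850.

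The 3 libraries of lin-61 set-25 did not carry the raised windows equally, and library c stood apart. Over the 1850 windows the summed level was 18580 CPM in library c, 7568 CPM in library a and 3350 CPM in library b. In nrde-3 set-25, the next highest genotype, it was 3214, 1787 and 1782 CPM in libraries a, b and c. The lowest lin-61 set-25 library thus lay just above the highest nrde-3 set-25 library. N2 libraries held 283 to 385 CPM, nrde-3 389 to 745 CPM and lin-61 763 to 1402 CPM. As a share of all reads the windows made up 1.86% of library c, 0.757% of a and 0.335% of b, against 0.0283 to 0.0385% in N2.

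**Figure D1:**
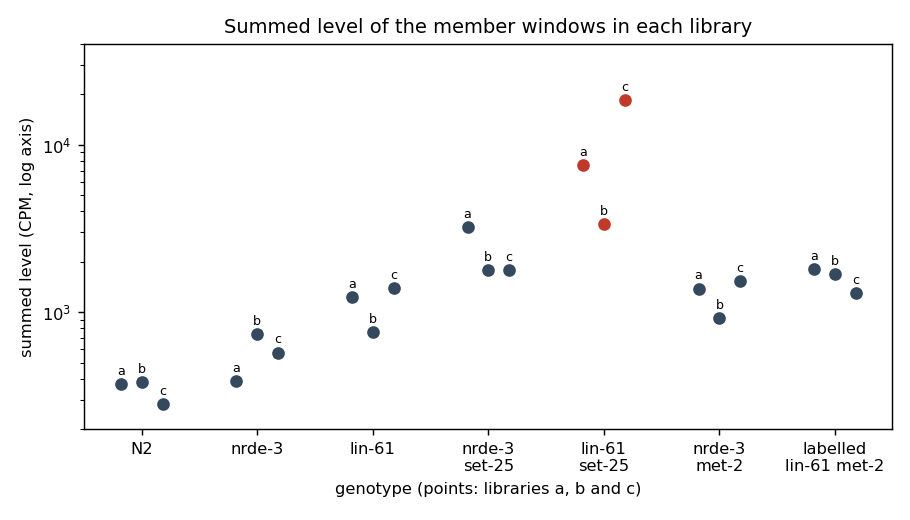
Summed level of the 1850 windows in each of the 21 libraries, in CPM on a log axis, with genotypes on the horizontal axis and points marked by library letter. The lin-61 set-25 libraries (red) run from 3350 to 18580 CPM, and the highest library of any other genotype is nrde-3 set-25 a at 3214 CPM.

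Nearly every window repeated this order of libraries. Library c was the highest of the 3 in 1832 of 1850 windows (99%), and c lay above a and a above b in 1754 (94.8%). Among the 60470 other windows of at least 1 CPM, c was highest in 41.9% and the order c, a, b was seen in 30.5%. The rule acted on the mean of the 3 libraries, which favours windows high in library c. Part of these gaps, and of those in the ratios that follow, is therefore built in. The ratio of c to a had a median of 2.54 in the raised windows, with quartiles of 2.12 and 3.11, and that of a to b a median of 2.16, with quartiles of 1.62 and 2.84. In the other windows these medians were 1.03 and 1.04. Among the chosen windows the step between libraries was thus similar from window to window, and it hardly moved with level. The median ratio of c to a was 2.63 among windows of 1 to 2 CPM and 2.54 among windows of 20 CPM or more. In windows nearly without reads in N2 and lin-61 (at most 2 reads over their 6 libraries, 32316 windows), library c held 0.0287 CPM per window, a 0.015 and b 0.0108, which is the same order at a far lower level. Its part in the result was not tested.

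**Figure D2:**
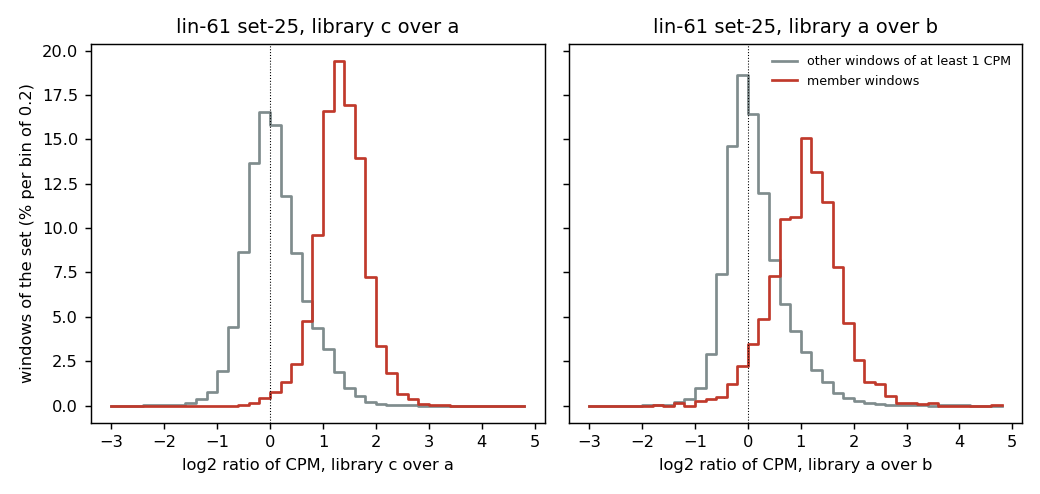
Distribution of the log2 ratio of CPM between lin-61 set-25 libraries c and a (left) and a and b (right), as a share of each set per bin of 0.2, for the 1850 raised windows (red) and other windows of at least 1 CPM (grey). The raised windows peak above 0 in both panels (median ratios 2.54 and 2.16), while the other windows peak near 0.

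Each library was then set against the rule on its own. Library c alone was at least 1 CPM and 3 times each of the 4 means in 1847 of the 1850 windows, library a in 891 and library b in 94. All 3 met this in 74 windows and only 1 library in 942. All 3 lin-61 set-25 libraries lay above all 12 libraries of the 4 genotypes in 950 of 1850 windows (51.4%), against 7.26% of all windows of at least 1 CPM. Since the rule used this contrast, nothing follows from that difference. Library b lay within the range of the other genotypes in most of the remaining windows: it was above all 12 libraries in 955, while a was above them in 1829.

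The windows were also chosen with 1 library left out and then read in it. The level of the left-out library is unused there, but its fold divides by the same 4 means that chose the windows, so part of each gap to the background is built in and the shares are a description. Without library c, 302 windows met the rule, of which 291 were among the 1850, and 288 of the 302 met level and fold in library c as well, against 8.68% of all windows of at least 1 CPM. Without library b, 3763 windows met the rule, but 91 of them met level and fold in library b (2.42%, against 0.189% of windows of at least 1 CPM). Without library a, 2519 windows met it, and 872 of them did so in library a (34.6%, against 1.59%). The 302 windows chosen on libraries a and b had median levels of 2.98 CPM in a, 1.46 in b and 6.98 in c, against 0.576 CPM in nrde-3 set-25 and 0.0634 in N2. They lay on IV (85), X (58), V (51), I (45), II (45) and III (18).

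By their medians, the raised windows were lowest in N2 and stood higher in nrde-3, lin-61, nrde-3 set-25 and lin-61 set-25, in that order. The median of the genotype means over the 1850 windows was 0.0693 CPM in N2, 0.15 in nrde-3, 0.274 in lin-61, 0.588 in nrde-3 set-25 and 2.47 in lin-61 set-25. This order of the 4 lower genotypes held window by window in 1019 of 1850 (55.1%), against 12.5% of windows of at least 1 CPM. The rule used all 4 means, and that background was of higher level, with a median of 3.75 CPM in N2. Nothing is therefore read from the gap. In N2, 1105 windows held less than 0.1 CPM, the highest held 3.79 CPM, and 55 held no read in any library, which allows up to 0.0167 CPM. With windows below the floor of 3 reads per genotype set to that floor, lin-61 set-25 stood at a median of 37.6 times N2, 17.4 times nrde-3, 8.62 times lin-61 and 4.17 times nrde-3 set-25. Without library c these medians were 19.5, 9.54, 4.74 and 2.36. For all windows of at least 1 CPM the 4 medians were 1.46, 1.05, 1.49 and 1.09, or 0.54, 0.07, 0.58 and 0.13 on the log2 scale, so lin-61 set-25 stood above N2 and lin-61 in those windows too. With TMM-normalised library sizes, which scale libraries to one another, 1093 windows met the rule, all of them among the 1850. Among the other genotypes of the rule, only nrde-3 and nrde-3 set-25 share the prefix 1121 with lin-61 set-25. Against N2 and lin-61, genotype and prefix cannot be told apart.

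The genotype nearest to lin-61 set-25 was nrde-3 set-25 in 1603 of the 1850 windows, lin-61 in 213, nrde-3 in 28 and N2 in 6. Where nrde-3 set-25 came second, its median was 0.584 CPM against 0.237 in lin-61 and 2.44 in lin-61 set-25. Where lin-61 came second, levels were higher throughout, at 1.22 CPM in lin-61, 0.932 in nrde-3 set-25, 0.29 in N2 and 4.27 in lin-61 set-25. Of these windows 45.1% lay in stretches (runs, below) of 10 or more raised windows, against 18% where nrde-3 set-25 came second. Their medians therefore lean more on neighbouring windows. Across the 1850 windows, Spearman's rho of log2(CPM + 0.05) between single libraries of nrde-3 set-25 and lin-61 set-25 was 0.781 to 0.873, and 0.829 to 0.911 among the lin-61 set-25 libraries. With lin-61 libraries it was 0.494 to 0.661 and with N2 0.327 to 0.555. These values describe the windows, which share libraries and depth and have fewer reads in N2.

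Most of the raised windows were low even in lin-61 set-25. Of the 1850, 747 (40.4%) had 1 to 2 CPM, 601 had 2 to 5, 455 had 5 to 20 and 47 had 20 CPM or more. The fold over the next genotype was about the same in each class, with medians of 3.88, 4.01, 4.18 and 4.23. It was at least 5 in 478 windows, at least 10 in 73 and at least 20 in 15.

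The window with the highest level was V 4647501, which held 268, 73.2 and 612 CPM in libraries a, b and c of lin-61 set-25. In nrde-3 set-25 it held 114, 56.8 and 83.1 CPM, in lin-61 29.7, 6.98 and 19.8 CPM, in nrde-3 4.63, 3.93 and 2.55 CPM, and in N2 0.163, 0.492 and 0.0365 CPM. Its lin-61 set-25 library b lay below nrde-3 set-25 libraries a and c, so these groups overlapped, although the means (317 ± 273 and 84.7 ± 28.8 CPM) differed 3.75-fold. II 5831001 had the same pattern, with 201, 79.7 and 500 CPM in lin-61 set-25 against 116, 48.2 and 60.5 in nrde-3 set-25 and 0.281 to 0.492 in N2. X 4354001 held 181, 60 and 434 CPM against 86, 39.9 and 49.2 in nrde-3 set-25 and 0 to 0.299 in N2. All 3 windows therefore had library b of lin-61 set-25 within the range of nrde-3 set-25.

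The other windows named for their level were V 13415501, II 8445501, V 4435501, II 5839501, IV 7753501, IV 8825001 and I 8447001, with means of 38.7 to 72.5 CPM in lin-61 set-25. V 4435501 held 43.5, 29.8 and 101 CPM in lin-61 set-25, 13.8, 6.32 and 9.02 in nrde-3 set-25, 1.14, 0.151 and 0.714 in lin-61, 0.123 to 0.37 in nrde-3 and 0 to 0.0528 in N2. Here all 3 lin-61 set-25 libraries were above every other library. I 8447001 held 23.4, 8.28 and 84.4 CPM against 7.03, 3.91 and 3.55 in nrde-3 set-25, with 0.256 to 0.437 in lin-61 and 0.164 to 0.246 in N2, and again the libraries did not overlap. IV 8825001 did not overlap either, with 30.8, 12 and 84 CPM against 9.18, 3.99 and 5.34 in nrde-3 set-25 and 0.0296 to 0.0528 in N2. In the other 4 of these windows library b of lin-61 set-25 lay within the range of nrde-3 set-25: 20.7 CPM against up to 27.9 in V 13415501, 15.5 against up to 25.2 in II 8445501, 17.8 against up to 18.5 in II 5839501 and 12.7 against up to 15.5 in IV 7753501. The groups thus overlapped in 7 of the 10 windows with the highest level. In these 10 windows nrde-3 set-25 was second each time, 3.3-fold (II 5839501) to 8.02-fold (I 8447001) below lin-61 set-25.

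The windows with the largest fold were a different group, nearly empty in every other genotype of the rule. IV 3301001 held 1.28, 0.753 and 5.9 CPM in libraries a, b and c of lin-61 set-25, with no read in N2, nrde-3 or lin-61 and 2 reads in nrde-3 set-25. Over 197 reads in lin-61 set-25 this gives a ratio of 95.3 (exact binomial 95% interval 26 to 792). IV 3302501, a little further along, held 1.51, 0.669 and 6.68 CPM and had a ratio of 42.6 (18 to 132) over 5 reads. These 2 windows, which counted as separate runs, had the same order of libraries. IV 3302501 differed in having 1 read in lin-61. Intervals here and below compare pooled reads and cover counting error only.

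IV 10737501 was one of the few windows that departed from the common order of libraries. It held 0.942, 2.38 and 4.72 CPM in lin-61 set-25 libraries a, b and c, so that b was above a, and at most 0.135 CPM in every library of N2, nrde-3, lin-61 and nrde-3 set-25. Its ratio to nrde-3 set-25 was 38.3 (16.1 to 119). II 14501001 also had b above a, at 2.98, 3.47 and 10.3 CPM, against 0.165, 0.23 and 0.135 in nrde-3 set-25 and at most 0.0811 CPM in the libraries of the other 3 genotypes, a ratio of 30.9 (17.9 to 58.5). IV 16578001 was the most even of the group, with 0.829, 0.669 and 1.63 CPM and a ratio of 37.7 (10.1 to 317) over 2 reads in nrde-3 set-25. In all of these windows every lin-61 set-25 library was above every library of the 4 genotypes.

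The remaining windows of this group were I 3528001, X 12745001, IV 7310501, V 10421001 and I 6311001, at 24.1- to 28.5-fold over the next genotype of the rule. I 3528001 had N2 as the second genotype, at 0.0592, 0.0704 and 0.0365 CPM in N2 against 1.02, 0.46 and 3.26 in lin-61 set-25. X 12745001 held 1.69, 0.962 and 5.09 CPM in lin-61 set-25, 0 to 0.153 in nrde-3 set-25 and no read in nrde-3. V 10421001 held 1.24, 1.3 and 3.83 CPM, against 0.0767 to 0.0898 in nrde-3 set-25. Of the 10 windows with the largest fold, 5 were on IV.

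Raised windows lay next to each other. Joined across at most 1 window that did not meet the rule, they formed 841 runs, of which 504 were single windows, 63 held 5 or more raised windows and 21 held 10 or more. Runs of 5 or more contained 646 of the 1850 windows (34.9%), and 1164 windows had a raised window directly beside them. Inside runs, 172 windows did not meet the rule, 108 because they were under 1 CPM and 64 because they missed the fold. Neighbouring windows of 1 run can come from 1 transcript, so the 1850 windows are not separate observations.

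The longest run was on III, from 6762501 to 6793500, and held 53 raised windows over 31 kb. Its mean level per window was 7.95, 3.43 and 18.4 CPM in libraries a, b and c of lin-61 set-25, 3.08, 1.6 and 1.36 in nrde-3 set-25, 2.33, 1.78 and 3.04 in lin-61, 0.313, 1.52 and 1.34 in nrde-3 and 1.14, 1.12 and 0.741 in N2. It was thus active at a low level in N2, lin-61 was its second genotype, and all 3 lin-61 set-25 libraries lay above every other one. The next, on IV from 11973001 to 11994000, held 41 raised windows over 21 kb, with 5.56, 2.4 and 13.7 CPM in lin-61 set-25 against 1.6, 0.877 and 0.667 in nrde-3 set-25. There N2 held 0.197 to 0.277 CPM and lin-61 0.519 to 0.957 CPM.

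The other 3 long runs were on I from 14882001 to 14893500 and on V from 6144001 to 6155000 and from 11740501 to 11752500, with 22 or 23 raised windows each. The run on I held 8.15, 4.2 and 14.5 CPM in lin-61 set-25 and 1.3 to 1.65 in N2, the highest N2 level of the 5. The first run on V held 8.04, 3.23 and 18.2 CPM, and there library b overlapped with nrde-3 set-25 library a at 3.26 CPM. The second held 3.36, 1.57 and 8.5 CPM, above all libraries of the other 4 genotypes. The ratio of the run mean to the next genotype was 3.68 to 6.88 over the 5 runs, and c was the highest library in each.

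The raised level ended sharply at the edge of a run. In 177 runs of 3 or more raised windows, the outermost raised window had a median of 2.29 CPM in lin-61 set-25, the window 0.5 kb outside 0.348 CPM and the window 2 kb outside 0.121 CPM. Since the rule set the edge, a fall there is built in. Beyond it, the ratio of the lin-61 set-25 median to that of nrde-3 set-25 was 2.82 at 0.5 kb, 1.7 at 2 kb and 1.37 at 5 kb. In nrde-3 met-2 the medians were flat beyond the edge, at 0.302 CPM at 0.5 kb and 0.342 CPM at 5 kb, near the level of these libraries in windows nearly without reads (0.0955 to 0.361 CPM).

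**Figure D3:**
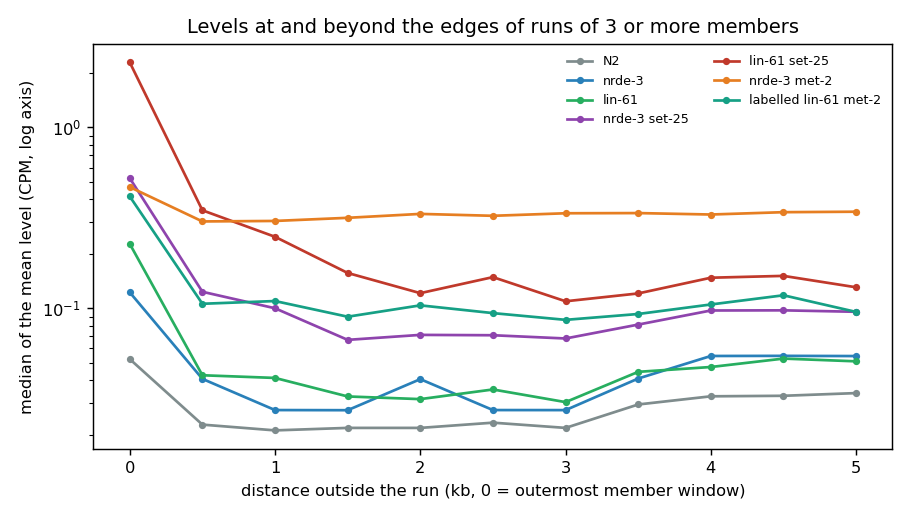
Median over windows of the mean level in each genotype, in CPM on a log axis, against the distance in kb outside runs of 3 or more raised windows, both sides together, where 0 is the outermost raised window. The lin-61 set-25 median drops from 2.29 CPM to 0.348 CPM within 0.5 kb, and nrde-3 met-2 stays at 0.302 to 0.342 CPM outside.

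Position was not used by the rule. The 1850 windows lay on all 6 chromosomes: 391 on V, 374 on IV, 370 on X, 276 on II, 228 on I and 211 on III. Per 100 windows of at least 1 CPM in lin-61 set-25, this was 4.16 on V, 4.08 on X, 3.76 on IV, 2.68 on II, 1.88 on III and 1.84 on I. V, X and IV were therefore above the 2.97 of the whole genome and the other 3 below it. The outer 25% at either end of the chromosomes held 600 of the windows (32.4%), against 42.3% of windows of at least 1 CPM and 50% of all windows. The share was lowest on V, at 23.5%, and on I, at 44.7%, it was above the 41.9% of windows of at least 1 CPM there. On I, 23 of the 102 outer windows belong to the run from 14882001 to 14893500, so that share leans on neighbouring windows.

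**Figure D4:**
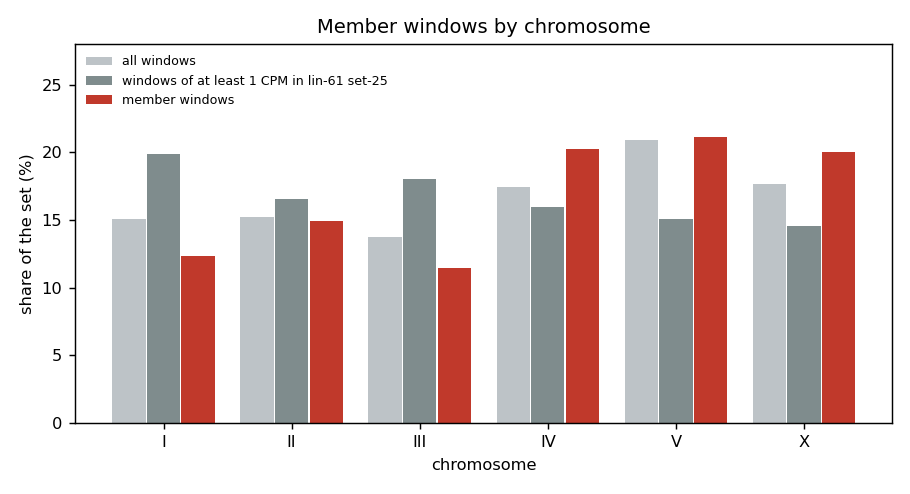
Share of all windows (light grey), of windows of at least 1 CPM in lin-61 set-25 (dark grey) and of the 1850 raised windows (red) on each chromosome, in %. V, X and IV hold 21.1, 20 and 20.2% of the raised windows, and I and III hold 12.3 and 11.4%.

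The same rule with another genotype in the place of lin-61 set-25 found far fewer windows. It kept 78 windows for lin-61, 3 for nrde-3 set-25, 2 for N2 and 0 for nrde-3. In the opposite direction, 2 windows had at least 1 CPM in each of the 4 genotypes and at most 1 part in 3 of each mean in lin-61 set-25. The 78 windows of lin-61 were even among libraries, with median levels of 5.54, 5.67 and 5.69 CPM in a, b and c, and in 2 of them a single library held over 50% of the 3. In the 1850 windows library c held over 50% in 1769. Of the 78, 45 (57.7%) lay in those outer parts and 27 on V.

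The pair of labelled groups outside the rule allowed the single test here of values that had not chosen the windows. Since the lin-61 met-2-labelled libraries went against their label, it is not settled which genotypes this test compares, or that they differ. The minimum count for this test was applied over all 21 libraries, however, with lin-61 set-25 among them. In nrde-3 met-2 the median over the 1850 windows was 0.517 CPM and in the lin-61 met-2-labelled libraries 0.482 CPM, both below lin-61 set-25 and above N2. The summed level was 1386, 918 and 1546 CPM in libraries a, b and c of nrde-3 met-2 and 1819, 1695 and 1305 CPM in the lin-61 met-2-labelled ones, so the libraries overlapped. Of the 1850 windows, 1472 in nrde-3 met-2 and 1412 in the lin-61 met-2-labelled libraries were at least 3 times N2, against 10.9% and 11.8% of windows of at least 1 CPM. Since a low N2 mean was part of the rule, an excess over N2 is partly built in, and nothing is read from these shares. All 3 libraries lay above all 3 of N2 in 1495 and 1556 windows, against 37% and 50.7%, and the same holds there. The windows of that background had a median of 3.75 CPM in N2 and so are not of like level, and N2 has another prefix. Lin-61 set-25 was the highest of all 7 genotypes in 1846 of the 1850 and at least 3 times each of the other 6 in 1491. In nrde-3 met-2, the level of 0.0955 to 0.361 CPM in windows nearly without reads moves with this result. With it taken off, the nrde-3 met-2 median was 0.311 CPM and that of the lin-61 met-2-labelled libraries 0.45 CPM.

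In edgeR's quasi-likelihood test of nrde-3 met-2 against the lin-61 met-2-labelled libraries, with adjustment over all 97353 windows tested, 14 of 1829 raised windows passed an adjusted p of 0.05, 6 higher and 8 lower in nrde-3 met-2. In the background of all tested windows, 1.47% were called higher and 0.804% lower. The share of raised windows called in either direction (0.765%) was below the 2.28% of all windows, and their estimates were less precise (median SE of 0.59 on the log2 scale, against 0.34). The median log2 fold change was -0.06 in the raised windows and 0.06 in all. The balance of directions depended on the processing: with the reads of nearly empty windows taken off, 5 raised windows were called higher and 20 lower with a median of -0.56, and without the minimum count 10 and 117. The 21 windows that were not tested had too few reads. The number of calls moved with single libraries. Without library a of the lin-61 met-2-labelled set, edgeR called 0 raised windows (137 had an unadjusted p under 0.05) and 6 of all windows. The 10 called windows named below kept their direction there, with a log2 fold change of -2.47 in place of -2.68 in X 4353501 and, at the greatest shift, 2.01 in place of 2.62 in I 10952501. Without library b of nrde-3 met-2 it called 21 raised windows higher and 11 lower, and without library a 4 and 4. Without library b or c of the lin-61 met-2-labelled set it called 2 higher and 6 lower. With the 6 libraries fitted alone, 1196 raised windows passed the minimum count, 1 was called and 203 had an unadjusted p under 0.05. The rest of the 1829 had passed it only with the other genotypes included.

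The median log2 fold change fell as the level of the window in lin-61 set-25 rose. The same shares were not obtained for other windows of like level. The trend can therefore not be called particular to the raised windows. Among the 47 windows of 20 CPM or more in lin-61 set-25, 46 were lower in nrde-3 met-2, with a median log2 fold change of -1.26, and 6 were called lower. Of these 6, II 5831001 and II 5831501 share a run, as do X 4353501 and X 4354501. The counts in each class are of windows, not of runs, and so not of separate observations. Among the 455 of 5 to 20 CPM, 409 were lower, with a median of -0.52, and 2 were called lower. Among the 601 of 2 to 5 CPM, 320 were lower, with a median of -0.04, and 1 was called higher. Among the 726 tested windows of 1 to 2 CPM, 185 were lower, with a median of 0.5, and 5 were called higher. With the reads of nearly empty windows taken off each library, the medians were -0.26, -0.54, -0.72 and -1.35 from the lowest class to the highest. All were then negative, so the direction in the lowest class turned.

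**Figure D5:**
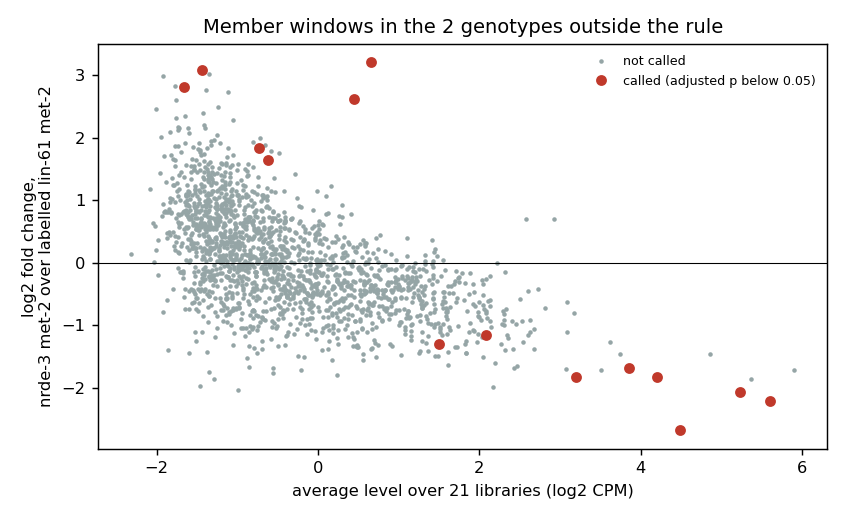
Log2 fold change of nrde-3 met-2 over the lin-61 met-2-labelled libraries for the 1829 raised windows tested, against the average level over all 21 libraries in log2 CPM, with called windows in red. The 6 windows called higher in nrde-3 met-2 have lower levels than all 8 called lower.

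Windows called lower in nrde-3 met-2 included some of the most abundant. X 4353501, in the same run as X 4354001, held 2.95, 2.53 and 3.25 CPM in nrde-3 met-2 and 23, 18 and 13.4 CPM in the lin-61 met-2-labelled libraries, a log2 fold change of -2.68 ± 0.45 (SE, edgeR adjusted p = 0.0102). II 5831001 held 10.4, 7.94 and 8.27 CPM against 61.8, 30 and 27.6, a log2 fold change of -2.21 ± 0.49 (edgeR adjusted p = 0.0228). V 4435501 held 1.41, 1.28 and 1.6 CPM against 7.05, 3.73 and 3.95, a log2 fold change of -1.82 ± 0.47 (edgeR adjusted p = 0.0404). In each of these 3 windows, as the naming required, every nrde-3 met-2 library lay below every lin-61 met-2-labelled one. V 13415501, with an edgeR adjusted p of 0.04999, and I 9322001 had log2 fold changes of -1.68 and -1.3. The call of V 13415501 held without the minimum count and without library b of nrde-3 met-2. It was lost in every other alternative setting, such as RLE-scaled library sizes (edgeR adjusted p = 0.0582). That of X 4353501 was lost only without library a of the lin-61 met-2-labelled set.

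Windows called higher in nrde-3 met-2 were of low level in the rest of the series. X 2263501 held 2.22, 17.4 and 1.44 CPM in nrde-3 met-2 and 0.495, 0.754 and 1.16 CPM in the lin-61 met-2-labelled libraries, a log2 fold change of 3.2 ± 0.73 (edgeR adjusted p = 0.0254). Library b alone set its size: without it the log2 fold change was 1.01. I 10952501 held 6.78, 3.95 and 10.7 CPM against 0, 1.8 and 1.56 CPM, a log2 fold change of 2.62 ± 0.63 (edgeR adjusted p = 0.0332), and 1.24 CPM in lin-61 set-25. This window was thus higher in nrde-3 met-2 than in lin-61 set-25. X 3498501, III 10982501 and II 14170001 had log2 fold changes of 3.08, 2.81 and 1.84, with 0.404 to 1.36 CPM in the nrde-3 met-2 libraries. III 10982501, with 0, 3 and 3 reads in the lin-61 met-2-labelled libraries, did not pass the minimum count with the 6 libraries alone. In each of these 10 windows the libraries of the 2 groups did not overlap, which was a condition for naming them. All 14 called windows met it.

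The windows at the edge of the rule differed little on either side. IV 13560001, II 5235001 and X 3014001 were just inside the level, at 1.001 or 1.002 CPM, and IV 3438501, III 6612501 and X 8587001 just outside, at 0.998 to 1 CPM. For the fold, III 9935501, II 4623501 and IV 4005501 were just inside at 3 times the next genotype, and V 8282501, III 10782001 and II 7911501 just outside, at 2.998 or 2.999 times. Within reach of the limits, 349 of the 1850 windows had a fold under 3.3 and 113 a level under 1.1 CPM, while 493 windows of at least 1 CPM missed the fold at 2.7 or more.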

How the data were processed

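The authors deposited raw read counts per 500 bp window of 6 chromosomes, in genome build ce10 per the submitters' processing notes. The aligner, the counter and the treatment of reads with several matches are not given in the sources used here. Such reads could raise repeats and near-identical copies together. Columns were matched to genotypes by name, their letters are not tied to replicate numbers, and 6 columns that match no sample were not used. The members and settings were chosen with earlier results of these data known.

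CPM used column totals (22275571 to 67553226 reads), and 3 reads over a genotype set the floor. The test was edgeR 4.0.16 in R 4.3.3 (TMM, filterByExpr with a minimum count of 10, glmQLFTest) over all 21 libraries, which left 14 residual degrees of freedom, with Benjamini-Hochberg adjustment over 97353 windows. DESeq2 1.42.0 and other settings were alternatives. In counts simulated for this comparison over 91746 windows, the test found 33 of the 100 windows given a log2 change of 1. It found 87 of the 100 given 2, and 8 of its 128 calls were false. These figures describe the simulated counts only and were not obtained for the raised windows. In the data, raised windows had a median SE of 0.59 on the log2 scale, against 0.34 in all windows tested. Windows called higher over the genome also numbered 5 to 6479 with 1 library left out. The share of false calls among the raised windows was not tested. Named windows were the 10 highest by level, the 10 highest by fold, the 5 longest runs, up to 5 called windows in each direction (1 window per run in these lists), and 3 on each side of the limits. Called windows were named only where the libraries of the 2 groups tested did not overlap. Folds over 1 to 3 reads are given with a counting interval, in place of the lower bound first planned. Sequences and gene names were not used here, since no ce10 genome or annotation was at hand. Summaries used Python 3.11.15.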

Additional observations from a re-analysis of the deposited data

How the results depend on the processing

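The number of windows depended on the scale and the limits of the rule. It was 1093 with TMM-normalised and 1223 with RLE-scaled library sizes, 4691 and 478 with a fold of 2 and 5, 2810 and 1103 with a level of 0.5 and 2 CPM, and 1164 with the median of the 3 libraries. Leaving out 1 of the 15 libraries gave 302 (lin-61 set-25 c) to 3763 (lin-61 set-25 b). A single lin-61 set-25 library in place of the mean, added after seeing the data, gave 1058 (a), 138 (b) and 7721 (c). For nrde-3 met-2 against the libraries labelled lin-61 met-2, windows called higher and lower over the genome numbered 5424 and 7193 without the minimum count, 0 and 1 in edgeR with the 6 libraries alone (where 11525 had an unadjusted p under 0.05), 1857 and 1515 with DESeq2, and 5 to 6479 and 1 to 2015 with 1 library left out. Among the 1850 windows they numbered 10 and 117 without the minimum count, 0 and 1 with the 6 libraries alone, 10 and 6 with DESeq2, 0 to 21 and 0 to 11 with 1 library left out, and 5 and 20 with background taken off. Among the 302 windows chosen without lin-61 set-25 replicate c they numbered 4 and 2. The last 2 settings were added after seeing the data. For the 10 windows named in this test, the call held in 65 alternative values and was lost in 44, and the direction turned in none of these. The cause of these changes was not tested. No paired analysis was possible because the columns carry letters that are not tied to the replicate numbers. Depth limits single windows: 3 reads over a genotype are 0.0156 to 0.0413 CPM.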
